A study of Homo sapiens with 19 samples.

Results

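The genes described here encode the proteasome: its subunits, activators, inhibitor and assembly chaperones. They were chosen by name, as protein-coding genes whose symbol is PSMA, PSMB, PSMC, PSMD, PSME, PSMF or PSMG followed by a number, with pseudogenes left out. The rule gave 48 of the 62700 genes in the count files and used no measured value. The members comprise 8 alpha subunits and 11 beta subunits of the core, 9 base and 8 lid subunits of the regulatory particle, 3 chaperones of base assembly, 4 activators, 1 inhibitor and 4 chaperones of core assembly.

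The proteasome is the protease that degrades most ubiquitin-tagged proteins of the cytosol and nucleus. Its core is a stack of rings in which alpha subunits form the gate and beta subunits hold the protease sites. The regulatory particle caps the core: the lid removes ubiquitin chains, and the ATPases of the base unfold the substrate and feed it in. In cells exposed to interferon gamma, PSMB8, PSMB9 and PSMB10 replace the catalytic subunits PSMB5, PSMB6 and PSMB7 to give the immunoproteasome, which alters the peptides offered to MHC class I.

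The cells were A549, a cell line established from a human adenocarcinoma of the lung. Their RNA was sequenced before and after nanostraw electroporation (NEE): voltage pulses open the membrane of cells that sit on hollow nanostraws. Lysates of A549 monolayers and of A549 spheroids were taken before NEE, right after NEE, 2 h after it and 24 h after it, with 2 biological replicates for each of the 8 groups and no other treatment or genotype in any of them. A further 3 libraries are technical replicates of RNA sampled from A549 monolayers through NEE itself, so that arm is 1 source, and p-values of comparisons with it rest on technical spread in that arm and on spread between replicates in the monolayers. The labels state a batch for each replicate, Rep1 or Rep2, and call the lysate replicates biological without saying what separates them.

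Total counts ran from 16031034 to 24571083 per lysate library and from 13626934 to 18512985 per NEE-sampled library. Replicate 1 of the monolayers before NEE stood apart: 15 leukocyte markers summed to 843 CPM there (counts of a gene per 1000000 counts of its library), against 41.1 to 113 in the other 15 lysates and 2.49 to 9.91 in the NEE-sampled libraries. None of the leukocyte markers was at 0 in that library and at most 2 were in any other lysate, whereas up to 11 of 15 were in NEE-sampled ones. Fibroblast markers (6 genes) summed to 33.5 CPM there, 28.45 of it from COL1A1, against 3.44 to 10.7 in the other lysates. Endothelial markers (3 genes, 2 of them at 0) summed to 17.2 CPM against 0.731 to 4.28. The 9 epithelial and A549 markers summed to 15430 CPM there against 34940 to 60060 in the other lysates. Of the 48 members, 26 had their lowest lysate level in that library and 4, PSMA8, PSMD5, PSME3 and PSME4, their highest, and its part in the results was not tested beyond the values given without it. In these bulk samples, fewer cells of a type and less RNA per cell cannot be told apart.

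Together the members took 0.722% to 1.15% of all counts in the lysates, with a mean of 0.966% ± 0.124 (SD, n = 16), and 1.09% to 1.28% in the 3 NEE-sampled libraries. The lysate of lowest share was replicate 1 of the monolayers before NEE; the other 15 began at 0.806%. Core subunits made up 21.1% to 30% of the members' CPM in the monolayers and 23.0% to 29.4% in the spheroids, while base and lid together made up 51.7% to 60.6% and 55.0% to 59.9%.

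**Figure D1:**
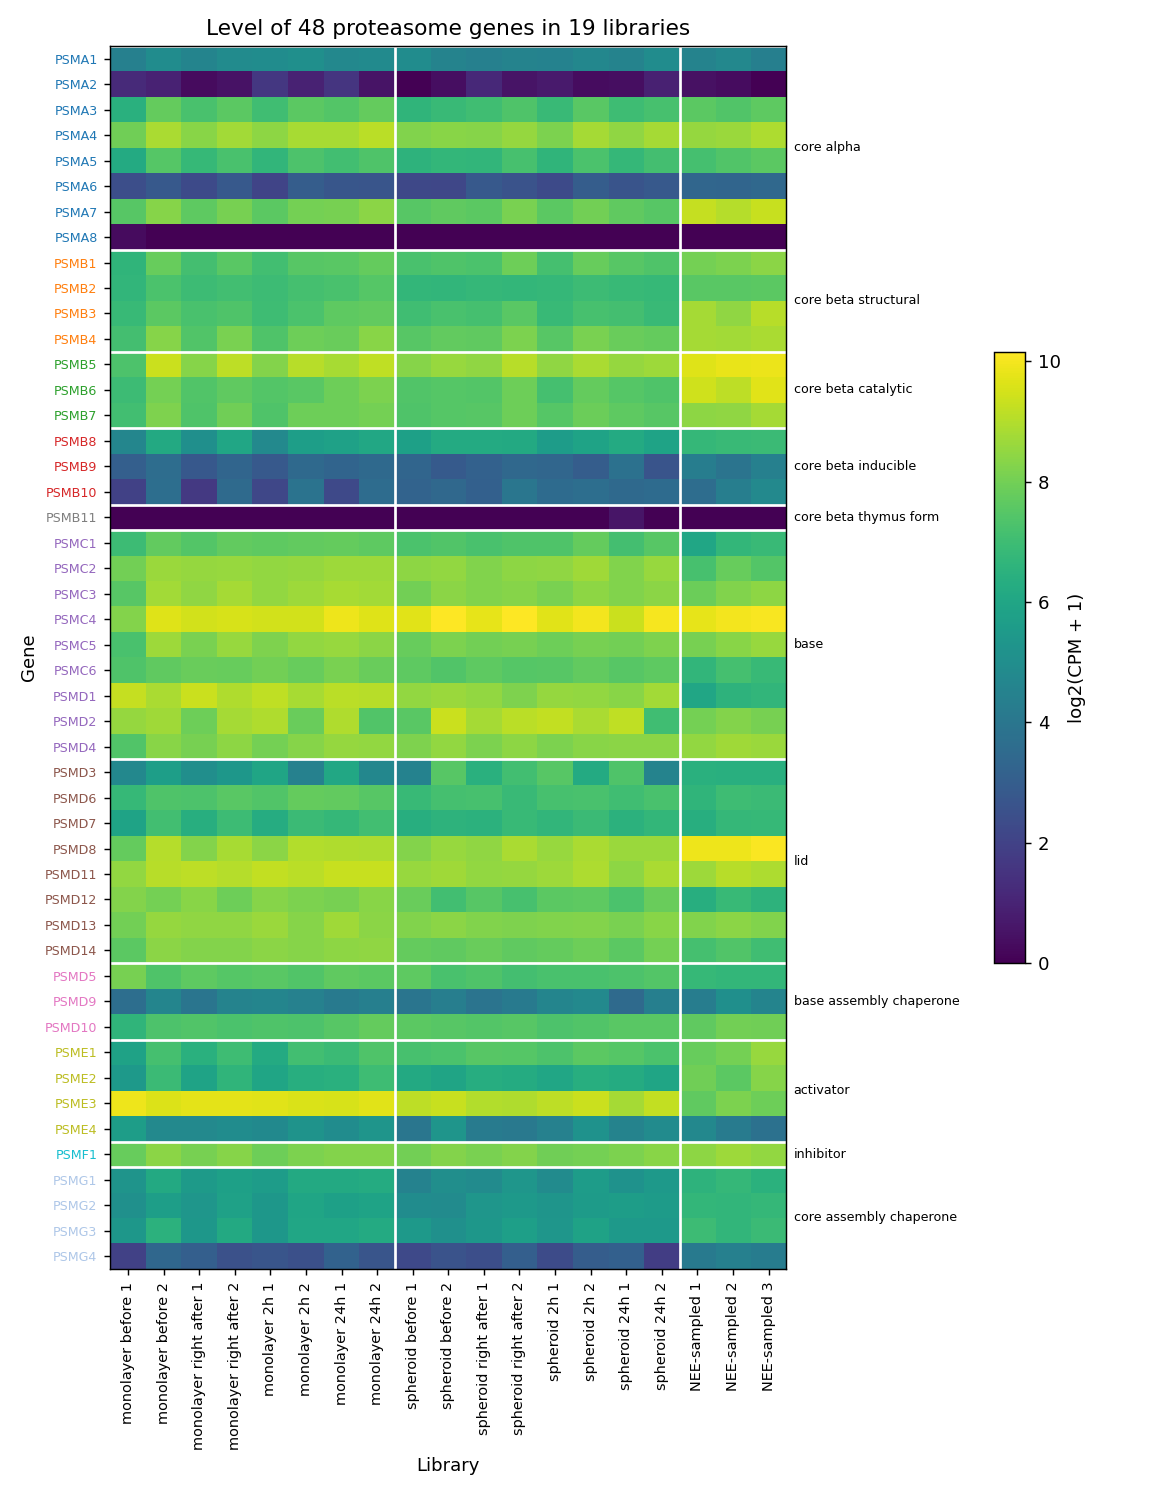
Level of each of the 48 proteasome genes (rows, grouped by class) in each of the 19 libraries (columns), as log2(CPM + 1) on the colour scale. PSMA2, PSMA8 and PSMB11 are dark in every library, and the NEE-sampled columns are brighter than all lysates for PSMB1 to PSMB9 and darker for PSMD1, PSMD12 and PSME3.

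Levels of different genes were compared per kilobase of annotated exon, as medians over the 16 lysates. PSMC4, an ATPase of the base, was the most abundant member at 342.5 CPM per kb, followed by the catalytic subunit PSMB5 at 224, the ATPase PSMC3 at 150.1 and PSME3, the activator of the nuclear proteasome, at 136. By this measure the least abundant base member was the ATPase PSMC6 at 26.8. In the lid, PSMD8 was highest at 127.0 and PSMD3 lowest at 11.3. Among the alpha subunits PSMA7 was highest at 115, and among the structural beta subunits PSMB3 was highest at 126 and PSMB2 lowest at 24.4. The inhibitor PSMF1 stood at 53.4. The chaperones of the base ran from 69.6 for PSMD10, known as gankyrin, to 2.21 for PSMD9, and those of the core from 22.2 for PSMG3 to 0.505 for PSMG4. Some ranks depended on the length used. Per kilobase of mRNA, with a single transcript for each gene, PSMC6 stood at 91.75 and PSMC1 was lowest in the base at 39.9. PSMC4 and PSMB5 stayed first, followed by PSMD8 at 254.0, PSMD4 at 241.7 and PSMB4 at 227.7. PSMB4 then also led the structural beta subunits.

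The counted levels of the alpha subunits were far apart. PSMA2 had 0 to 2.09 CPM and PSMA6 3.18 to 7.05 CPM across the lysates, whereas PSMA4 had 248.5 to 550.6. In the reference annotation 34.6% of the exon bases of PSMA2 (GRCh38, chr7:42916857-42932223, minus strand) are shared with other genes, among them MRPL32 on the opposite strand, which had 34.6 to 81.3 CPM, and a readthrough gene that had at most 0.0734 CPM. PSMA6 shares exons with a readthrough gene of at most 0.0522 CPM, and its 4 pseudogenes together held 18.1% to 56.4% of its own CPM. How reads that fit several genes or places were handled is not given in the sources used here, so the levels of PSMA2 and PSMA6 are uncertain. In all, 23 members share exon bases with another gene, 19 of them with one on the opposite strand, and the same limit holds for their levels. PSMA1, with 20.35 to 32.66 CPM in the lysates, shares 24.7% of its exon bases. Among members given above as lowest of a class, the shares were 75.8% for PSMC1, 22.6% for PSMD9 and 15.0% for PSMG4.

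A pair of members known from single tissues was near 0: PSMA8, the testis form of an alpha subunit, and PSMB11, the beta subunit of the thymus. PSMA8 was detected in 1 of 19 libraries, at 0.244 CPM in replicate 1 of the monolayers before NEE, and PSMB11 in 1, at 0.484 CPM in replicate 1 of the spheroids at 24 h. A count of 0 allows up to 3 counts, which is 0.122 to 0.220 CPM at these depths and covers counting error only. Both fell below the filter on low counts, so 46 of 48 members entered the tests.

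The catalytic subunits had 224 CPM per kb for PSMB5, the chymotrypsin-like site, 121 for PSMB6, the caspase-like site, and 108 for PSMB7, the trypsin-like site. Their inducible counterparts were low, at 19.4 CPM per kb for PSMB8, 5.56 for PSMB10 and 2.84 for PSMB9. Per kilobase of mRNA they stood at 51.6 for PSMB8, 11.15 for PSMB9 and 8.45 for PSMB10. PSMB5, PSMB6 and PSMB7 then stood at 305, 206 and 196.5. The order of PSMB9 and PSMB10 and the size of the share given below thus depend on the length used, here that of annotated exon. PSMB8 (chr6:32840717-32844703, minus strand) and PSMB9 (chr6:32844136-32859585, plus strand) overlap on opposite strands within the MHC region, so without strand their reads near the overlap cannot be told apart. Of the summed CPM per kb of these 6 genes, the inducible 3 took 3.22% to 4.79% in the 8 monolayer lysates, 4.90% to 7.07% in the 8 spheroid lysates and 4.14% to 4.68% in the 3 NEE-sampled libraries. The monolayer and spheroid ranges did not overlap, although the highest monolayer and lowest spheroid libraries were close. Within batch Rep1 the share was 3.82% in monolayers and 6.49% in spheroids, and within batch Rep2 it was 4.61% and 5.71%. In Rep2 the inducible genes themselves were not clearly higher in spheroids. PSMB8 averaged 63.45 CPM in monolayers and 65.07 in spheroids there, and PSMB10 averaged 11.61 and 11.75. PSMB9 was lower in spheroids, at 10.16 and 7.05. No test was made of this share, which is a sum over members.

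Promoter sequence was available for 42 of the 48 members from RefSeq (GRCh38.p14), as windows from 250 bases before to 50 bases after a transcription start. The interferon-stimulated response element, searched on both strands as GAAA, any 2 bases and GAAA, was in the windows of 7 of these 42 members (16.7%) against 4.38% of 27305 genes with a window. Those 7 were PSMA4, PSMB4, PSMB8, PSMB10, PSME1, PSME2 and PSMG4. The stretches below show the match in the inducible subunits and in PSME1 and PSME2, whose products form the interferon-induced activator of the core; capitals mark the match, read 5′ to 3′ on the gene's strand, and where the match is on the opposite strand the capitals are its reverse complement.
PSMB8: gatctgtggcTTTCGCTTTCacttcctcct
PSMB10: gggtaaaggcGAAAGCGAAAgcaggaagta
PSME1: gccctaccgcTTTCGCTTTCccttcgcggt
PSME2: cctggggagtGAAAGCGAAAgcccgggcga
They lie at chr6:32844032-32844061 (minus), chr16:67936852-67936881 (minus), chr14:24136189-24136218 (plus) and chr14:24146619-24146648 (minus). The 10 bases in capitals begin 4 bases before the start in PSMB8, 21 before in PSMB10, 6 after in PSME1 and 28 before in PSME2. The windows of PSMB9 held no match to these letters.

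The antioxidant response element core, to which NRF1 binds when it raises proteasome genes, was searched as TGACNNNGC on both strands. It was in the windows of 15 of 42 members (35.7%) against 16.1% of all genes with a window. The CCAAT box, searched as CCAAT, was in 47.6% against 39.7%, and the gamma-activated site, searched as TTCNNNGAA, in 19.0% against 9.38%. Windows numbered 51 for the 42 members and 35116 for the 27305 genes, the shares were not matched for base composition, and a match is a description of letters only. Of the 7 members that differed between spheroids and monolayers, described further on, 4 held TGACNNNGC, shown here in capitals.
PSMD1: ggcggcctgaggaggcgacTGACTGAGCag
PSMD12: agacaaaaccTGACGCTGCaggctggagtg
PSMG1: gcccagggcaTGACAGCGCgggcgggcggt
PSME1: atggcagggcTGACCCCGCctcctccatcc
These stretches lie at chr2:231056887-231056916 (plus), chr17:67366723-67366752 (minus), chr21:39183615-39183644 (minus) and chr14:24136098-24136127 (plus). The windows of PSME3, PSMD11 and PSMD14 held no match.

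After NEE, no member passed the test at any time in either culture. The question was whether the pulse was followed by a change in the lysates at 0 h, 2 h or 24 h. In the monolayers 0 of 46 members were called right after NEE (0% of the 17822 genes tested were), 0 at 2 h (0.00561% of all genes) and 0 at 24 h (0%). In the spheroids the counts were 0 right after (0%), 0 at 2 h (0.0112%) and 0 at 24 h (0%). The test was edgeR's quasi-likelihood test with Benjamini-Hochberg adjustment over all genes, calls were made at an adjusted p under 0.05, and DESeq2 also called no member. At an unadjusted p under 0.05 edgeR gave 0, 1 and 5 members in the monolayers, where 2.25%, 3.39% and 4.42% of all genes reached it, and 0, 0 and 1 in the spheroids, where 2.01%, 3.39% and 2.50% did. In simulated data for the spheroids at 2 h, the test recovered 4.88% of genes changed by 2-fold, 40.7% of those changed by 4-fold and 78.1% of those changed by 8-fold. The changed genes were drawn at random from all genes above a low level, so these shares are not those of genes at the members' levels.

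In the monolayers at 24 h the members' median log2 fold change was 0.33, with 42 of 46 positive, while the median of all genes was -0.01. The 3 members of smallest p were PSMD10, PSMC6 and the lid subunit PSMD11. PSMD10 had 98.7 and 157 CPM before NEE and 183 and 215 CPM at 24 h. Its log2 fold change was 0.66 ± 0.23 (SE). PSMC6 had 163 and 204 CPM before and 278 and 229 at 24 h, with 0.49 ± 0.21, and PSMD11 had 364 and 539 before and 639 and 638 at 24 h, with 0.52 ± 0.22. edgeR gave each an adjusted p of 1.0. The median differed between batches. Within batch Rep1 it was 0.80 on the log2(CPM + 1) scale, with 41 of 46 members positive, and within batch Rep2 it was 0.01, with 23 positive. With replicate 1 before NEE left out, the median at 24 h was 0.00, and without replicate 2 it was 0.88 and 2 members were called. The medians right after NEE and at 2 h, 0.07 and 0.12, also differed between batches: 0.40 and 0.43 in Rep1 and -0.12 and -0.11 in Rep2.

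In monolayers right after NEE the members of smallest p were PSMD10 (log2 fold change 0.37 ± 0.22, SE), PSMC6 (0.33 ± 0.21) and the lid subunit PSMD6 (0.38 ± 0.25), each with an adjusted p of 1.0 from edgeR. At 2 h they were PSMD6 (0.54 ± 0.25), PSMC6 (0.42 ± 0.21) and PSMD11 (0.41 ± 0.22). In the spheroids the medians of the members were 0.13 right after NEE, 0.16 at 2 h and 0.03 at 24 h, against 0.00 over all genes at each time. PSMG2, a chaperone that pairs with PSMG1 to build the alpha ring, had the smallest p at 2 h and at 24 h. Its log2 fold changes at the 3 times were 0.46 ± 0.29, 0.50 ± 0.29 and 0.64 ± 0.29. It had 29.6 and 29.2 CPM before NEE, 39.3 and 43.8 right after, 38.4 and 46.7 at 2 h and 48.8 and 47.3 at 24 h. All 6 later libraries lay above both libraries before NEE, but the adjusted p from edgeR was 1.0 at each time. The share of all genes with such an order was not computed. PSMG2 was picked by its p from these same values, so the order adds no support. The other members of smallest p were PSMA2, PSME3 (-0.32 ± 0.20) and PSME4 (-0.68 ± 0.43) right after NEE, PSMG1 (0.49 ± 0.35) and PSMD9 (0.55 ± 0.41) at 2 h, and PSMG1 (0.50 ± 0.35) and PSMA2 at 24 h. PSMA2 had at most 1.24 CPM in these spheroids, so no fold is given.

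Whether the response to NEE differed between cultures was tested as an interaction, and 0 of 46 members were called at 0% of all genes right after NEE, at 0% at 2 h and at 0% at 24 h (edgeR; DESeq2 also called none). At an unadjusted p under 0.05 edgeR gave 1, 0 and 1 members, where 2.90%, 3.11% and 3.52% of all genes reached it. The members' median difference was 0.06 right after NEE, 0.05 at 2 h and -0.26 at 24 h, against 0.05, 0.04 and 0.02 over all genes. In the last of these 38 of 46 members were negative, and leaving out 1 library at a time gave medians from -0.84 to 0.07. At 24 h PSMD10 had the smallest p, with a difference of -0.70 ± 0.32 (SE) between the log2 fold changes of spheroids and monolayers, followed by PSMD11 at -0.60 ± 0.32 and PSMC4 at -0.93 ± 0.51. At 2 h the 3 smallest were PSMD10 (-0.60 ± 0.32), PSMA1 (-0.54 ± 0.43) and PSMC6 (-0.35 ± 0.29), and right after NEE PSMA2, PSMD11 (-0.49 ± 0.32) and PSMD10 (-0.47 ± 0.32). All of these share the libraries before NEE with the time comparisons above.

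Spheroids and monolayers were first compared before NEE, with 2 libraries each. None of 46 members was called, against 1.30% of all genes, and 3 had an unadjusted p under 0.05, against 16.4% of all genes (edgeR; 0 members with DESeq2). PSMD10 had 98.7 and 157 CPM in the monolayers and 192 and 181 in the spheroids, PSMC4 had 312 and 815 against 840 and 1140, and PSMG1 had 37.4 and 70.5 against 21.8 and 31.3. The groups did not overlap for these 3 genes. They were picked as the members of smallest p from the same values, so the lack of overlap adds no support. The share of all genes without overlap was not computed for this comparison. Their log2 fold changes were 0.69 ± 0.23, 0.95 ± 0.36 and -0.88 ± 0.36 (SE), with adjusted p of 0.138, 0.199 and 0.231 from edgeR. The monolayer libraries decided these values: without replicate 1, the one with leukocyte markers, no member was called and the members' median was -0.38, and without replicate 2 it was 0.50 with 4 members called higher, among them PSMD10 (1.08, adjusted p = 0.0138) and PSMC4 (1.83, adjusted p = 0.00567). With no filter on low counts 2 members were called, both higher.

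Over the 4 times together, 8 spheroid against 8 monolayer lysates, 7 of 46 members were called, against 19.9% of all genes, a share close to the background. One was higher in spheroids (10% of all genes were) and 6 were lower (9.84%). The higher member was PSME1. The lower ones were PSME3, PSMD1, PSMD12, PSMD11, PSMD14 and PSMG1, which are an activator, the largest base subunit, a trio of lid subunits that includes the deubiquitinase PSMD14, and a core chaperone. No alpha, beta or inhibitor gene was called in this comparison. The members' median log2 fold change was -0.11, against -0.02 over all genes. At an unadjusted p under 0.05 edgeR gave 11 members, where 32.8% of all genes reached it.

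PSME3 (chr17:42824385-42843758, plus strand) had 744.5 to 951.3 CPM in the monolayers, median 833, and 444 to 653 CPM in the spheroids, median 567. Every spheroid library lay below every monolayer library, and the log2 difference was -0.49 ± 0.10 (SE), with an adjusted p of 0.00367 from edgeR. Its exons overlap those of BECN1 on the opposite strand, which had 134 to 253 CPM. PSMD1 (chr2:231056864-231172827, plus strand) had 458 to 649 CPM, median 541, in the monolayers and 292 to 431 CPM, median 363.5, in the spheroids, again without overlap, with -0.50 ± 0.11 (edgeR adjusted p = 0.00783). PSMD12 (chr17:67337916-67366627, minus strand) had 241 to 327 CPM, median 297, against 135 to 225 CPM, median 186, without overlap, with -0.59 ± 0.14 (edgeR adjusted p = 0.0104). These 3 were the members whose groups did not overlap; over all genes 7% did not.

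PSMG1 had 37.4 to 74.5 CPM in the monolayers, median 61.8, and 21.8 to 47.3 in the spheroids, median 33.4, a difference of -0.69 ± 0.18 on the log2 scale (edgeR adjusted p = 0.0149). PSMD14 had 192 to 353 CPM, median 326, against 190 to 258, median 215, with -0.41 ± 0.13 (edgeR adjusted p = 0.0372). PSMD11 had 364 to 639 CPM, median 563, against 340 to 481, median 396, with -0.36 ± 0.11 (edgeR adjusted p = 0.0377). These 3 ranges overlapped, for PSMD14 and PSMD11 only because replicate 1 of the monolayers before NEE was low. PSMD14 and PSMD11 were no longer called when any single library was left out, except replicate 1 of the monolayers before NEE or replicate 2 of the spheroids at 24 h, and PSMD14 had adjusted p of 0.0528 and PSMD11 of 0.0932 with no filter on low counts.

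PSME1 (chr14:24136158-24138967, plus strand) had 57.0 to 164 CPM in the monolayers, median 124, and 147 to 192 in the spheroids, median 167, a difference of 0.67 ± 0.19 on the log2 scale (edgeR adjusted p = 0.0252). The difference was unequal between batches: monolayers averaged 83.8 CPM and spheroids 167 in Rep1, but 141 and 168 in Rep2. The call was lost without replicate 1 of the monolayers right after NEE (adjusted p = 0.0664), at 2 h (0.0632) or at 24 h (0.0592), or without replicate 2 of the spheroids at 2 h (0.0519). The count of members called was 4 without any one of these 4 libraries. PSME2, the partner of PSME1 in the activator, had 43.4 to 127 CPM in the monolayers and 60.1 to 81.0 in the spheroids, with -0.15 ± 0.20 (edgeR adjusted p = 0.667). The 6 lower members were lower in spheroids in both batches, by 0.44 to 0.78 in Rep1 and 0.37 to 0.73 in Rep2 as mean log2(CPM + 1).

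**Figure D2:**
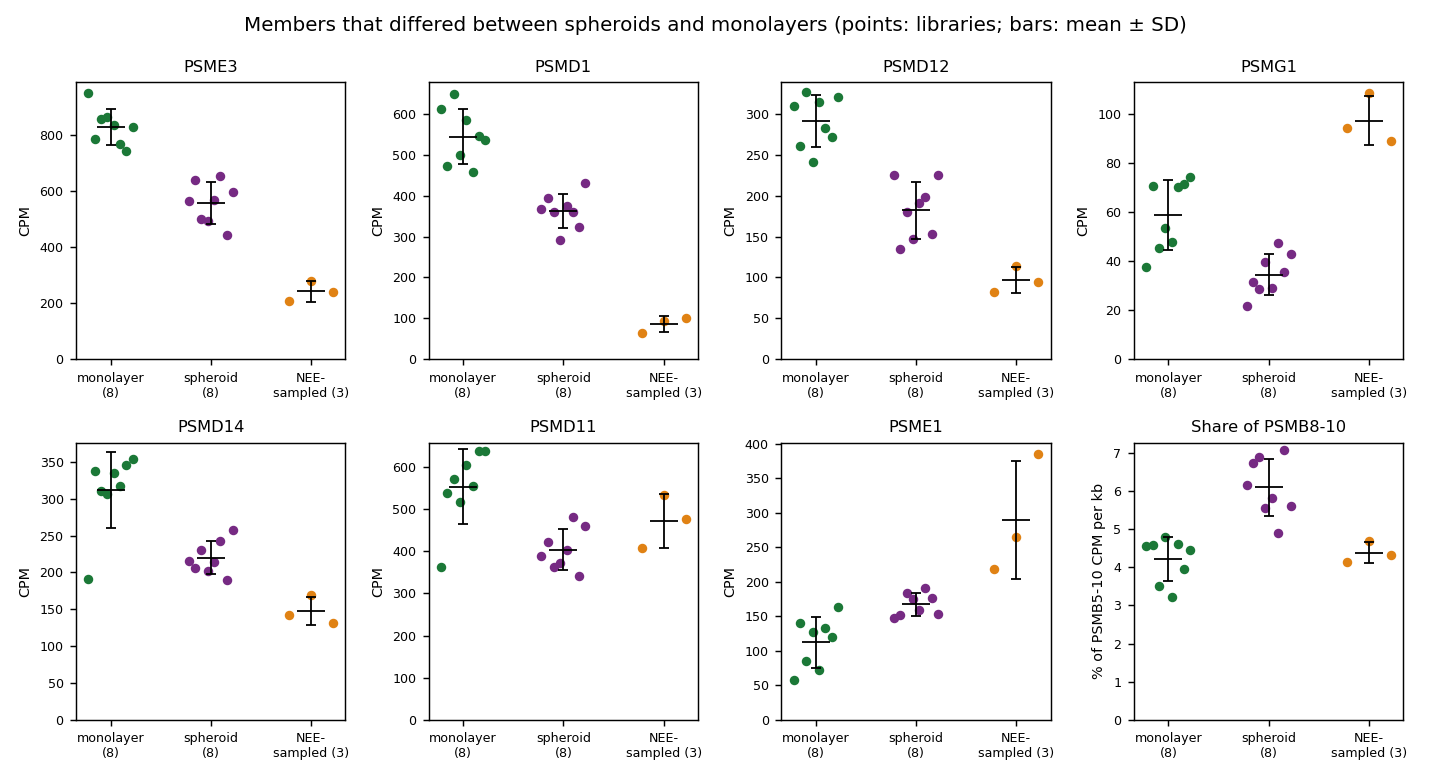
CPM of the 7 members called between spheroids and monolayers, and the share of PSMB8, PSMB9 and PSMB10 in the CPM per kb of the catalytic and inducible subunits, with 1 point per library and mean ± SD bars. Spheroid points lie below all monolayer points for PSME3, PSMD1 and PSMD12, and the NEE-sampled points lie lower still; the share of inducible subunits was 3.22% to 4.79% in monolayers and 4.90% to 7.07% in spheroids.

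The catalytic and inducible subunits were not called between cultures. The log2 fold changes of spheroids over monolayers were -0.08 ± 0.25 for PSMB5, -0.08 ± 0.15 for PSMB6 and -0.08 ± 0.17 for PSMB7, and 0.47 ± 0.23 for PSMB8, 0.04 ± 0.24 for PSMB9 and 0.59 ± 0.41 for PSMB10 (SE; edgeR adjusted p from 0.179 to 0.967). PSMB10 showed the batches most plainly, although 34.8% of its exon bases are shared with a gene on the same strand. That gene had at most 5.54 CPM. In the monolayers it had 2.89, 2.26, 3.50 and 3.68 CPM in Rep1 and 11.6, 10.4, 13.5 and 10.9 CPM in Rep2, before NEE and at the 3 later times in order. The batches did not overlap. In the spheroids it had 7.64 to 10.7 CPM in Rep1 and 9.74 to 14.7 in Rep2. PSMB8 likewise averaged 34.5 CPM in monolayers and 61.8 in spheroids within Rep1, but 63.4 and 65.1 within Rep2. Across all members, 22 of 46 were lower in Rep1 than in Rep2 at all 4 times in the monolayers, where 10.2% of all genes were, and 16 of 46 in the spheroids, where 10.04% were. They included all 10 tested beta subunits in the monolayers.

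PSMD3, a scaffold of the lid, and PSMD2, a scaffold of the base, are described for their spread between replicates and were chosen after their values were seen. PSMD3 had 25.6, 50.4, 31.8, 40.1, 62.2, 20.9, 68.1 and 24.8 CPM in the monolayers, by time and then replicate. In the spheroids it had 21.7, 184, 87.3, 136, 184, 72.4, 162 and 22.4 CPM in the same order. The replicates of a group lay far apart in most groups, and neither replicate was always the lower. PSMD2 had its 4 lowest lysates in the same 4 libraries, with 230 CPM in replicate 2 of the monolayers at 2 h, 168 in replicate 2 at 24 h, 190 in replicate 1 of the spheroids before NEE and 130 in replicate 2 of the spheroids at 24 h; its highest was 645 CPM. The dip was not particular to these members. UBA1, a gene of the ubiquitin list followed further on and also chosen after its values were seen, had its 4 lowest lysates there too. It had 283, 257, 241 and 246 CPM in the same order. The number of genes with this order was not computed. The SD of log2(CPM + 1) over the lysates was 1.12 for PSMD3 and 0.72 for PSMD2, against 0.17 for PSMF1. The log2 fold change of PSMD3 in spheroids was 1.5 ± 0.51 (SE, edgeR adjusted p = 0.0578), and that of PSMD2 was 0.41 ± 0.35 (adjusted p = 0.474), so neither was called.

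**Figure D3:**
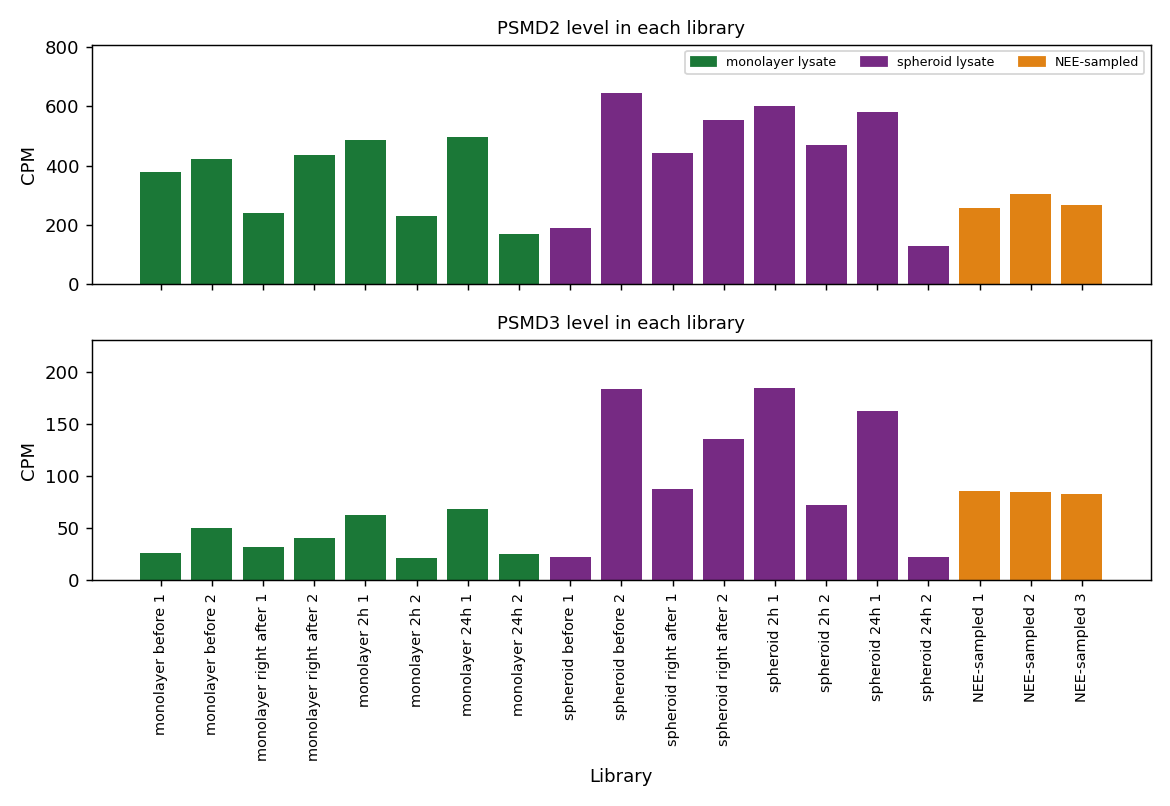
CPM of PSMD2 (top) and PSMD3 (bottom) in each of the 19 libraries, 1 bar per library, coloured by sample kind. Both genes dip in the second monolayer libraries at 2 h and 24 h, the first spheroid library before NEE and the second at 24 h, where PSMD3 had 20.9 to 24.8 CPM.

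NEE-sampled RNA held the proteasome genes in other proportions than monolayer lysates did. Against the mean of the 4 monolayer groups, 32 of 46 members were called, against 48.6% of all genes; 24 were higher (22.5% of all genes were) and 8 lower (26% were). The members' median log2 fold change was 0.71 while that of all genes was -0.20. With upper-quartile scaling, which moved the median of all genes to -0.04, the count was 27 higher and 5 lower. Core subunits made up 38.5% to 42.8% of the members' CPM, above every monolayer lysate, and base and lid together 41.5% to 45.4%, below every one. Counting the 3 technical replicates as 1 summed library, assumed to vary as the monolayers do, 21 members were called, 18 higher and 3 lower.

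All 10 tested beta subunits were higher in NEE-sampled RNA, with a median log2 fold change of 1.35. PSMB6 had 682, 573 and 828 CPM in the NEE-sampled libraries and 125 to 285, median 195, in the monolayers, with 2.11 ± 0.21 (SE, edgeR adjusted p = 1.158e-05). PSMB3, a structural subunit, had 444, 353 and 541 CPM against 114 to 207, median 158, with 1.80 ± 0.19 (edgeR adjusted p = 1.668e-05). For both, every NEE-sampled library lay above every monolayer lysate. PSMB5 had 798, 912 and 928 CPM against 160 to 641 and PSMB7 347, 355 and 446 against 133 to 290, with 1.31 ± 0.33 and 1.15 ± 0.24 (edgeR adjusted p = 0.00636 and 0.00181). The inducible subunits were called as well: PSMB8 had 108, 118 and 120 CPM against 24.1 to 71.9, PSMB9 18.5, 14.1 and 20.6 against 5.996 to 11.3, and PSMB10 11.3, 19.4 and 26.4 against 2.26 to 13.5, the last with overlap. Their log2 fold changes were 1.58 ± 0.32, 1.38 ± 0.29 and 1.71 ± 0.57 (edgeR adjusted p = 0.00137, 0.00198 and 0.0261). As 1 summed library, PSMB5 and PSMB10 were not called (adjusted p = 0.0686 and 0.116), while the other 8 beta subunits were. The call of PSMB10 was also lost without NEE-sampled replicate 2 (adjusted p = 0.0607) or 3 (0.122).

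Among the 7 tested alpha subunits, 2 were called. PSMA7 had 612, 518 and 639 CPM against 181 to 333, median 266, in the monolayers, with 1.56 ± 0.20 (SE, edgeR adjusted p = 6.351e-05) and no overlap. PSMA6 was higher by 1.17 ± 0.35 (edgeR adjusted p = 0.016), a call lost as 1 summed library (0.0947). The 5 others had log2 fold changes between -1.75 for PSMA2 and 0.66 for PSMA5. The core chaperones were all called higher, 4 of 4, with a median of 1.35; PSMG2 had 104, 101 and 107 CPM against 33.7 to 62.5, median 51.8, with 1.42 ± 0.20 (edgeR adjusted p = 0.000142).

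The regulatory particle was divided. In the base 2 of 9 members were higher and 4 lower, and in the lid 2 of 8 were higher and 2 lower. PSMD1 had 62.8, 93.7 and 101 CPM in NEE-sampled RNA and 458 to 649, median 541, in the monolayers, 5.02-fold lower (log2 fold change -2.33 ± 0.21, SE, edgeR adjusted p = 5.768e-06). PSMD12 had 82.6, 115 and 94.0 CPM against 241 to 327, median 297, with -1.26 ± 0.18 (edgeR adjusted p = 0.000111). PSMD8, a lid subunit, had 943, 954 and 1102 CPM against 218 to 521, median 467, with 1.61 ± 0.24 (edgeR adjusted p = 0.000171). None of these 3 overlapped between groups. The other called base members were PSMC4 and the ubiquitin receptor PSMD4, higher by 0.80 ± 0.23 and 0.71 ± 0.20, and PSMC1, PSMC2 and PSMC6, lower, at -0.67 ± 0.23, -0.70 ± 0.19 and -0.57 ± 0.17. Of the exon bases of PSMC1, 75.8% are shared with NRDE2 on the opposite strand, which had 1.73 to 39.6 CPM. In the lid, PSMD3 was higher at 1.40 ± 0.34 and PSMD14 lower at -0.75 ± 0.19. Of the base chaperones PSMD10 was higher (0.88 ± 0.17), PSMD5 lower (-0.53 ± 0.17) and PSMD9 at 0.71 ± 0.28 was not called. With the NEE-sampled libraries as 1 summed library, the calls left in these 3 classes were PSMD1 and PSMD12, lower, and PSMD8 and PSMD10, higher. The calls of PSMC1, PSMC2, PSMC6, PSMD14 and PSMD5 were lost (adjusted p from 0.191 to 0.345), as were those of PSMC4, PSMD4 and PSMD3 (0.0846, 0.0788 and 0.0565).

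The activators went both ways. PSME1 had 219, 264 and 384 CPM against 57.0 to 164 in the monolayers and PSME2 246, 193 and 318 against 43.4 to 127, with log2 fold changes of 1.71 ± 0.29 and 1.93 ± 0.29 (SE, edgeR adjusted p = 0.00045 and 0.000217). PSME3 had 206, 280 and 239 CPM against 744.5 to 951.3, median 833, with -1.45 ± 0.16 (edgeR adjusted p = 1.718e-05). For all 3 the groups did not overlap. PSME4 was at -0.46 ± 0.28 and not called, and the inhibitor PSMF1 was higher by 0.72 ± 0.16. Across the members, 20 lay higher in all NEE-sampled libraries than in all monolayer lysates and 9 lower, against 45.4% of all genes without overlap in either direction.

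**Figure D4:**
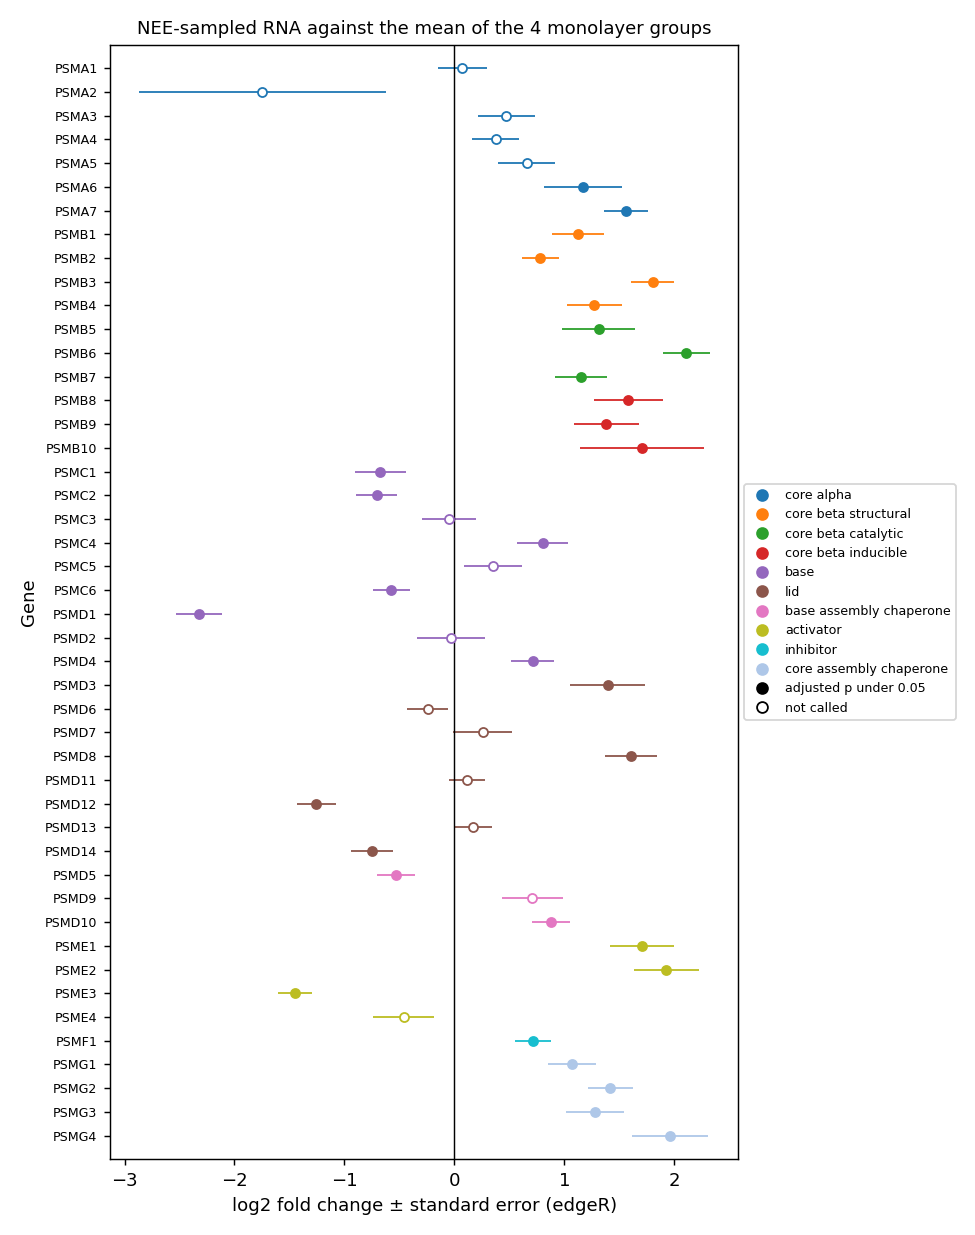
log2 fold change ± standard error of each of the 46 tested members in NEE-sampled RNA against the mean of the 4 monolayer groups, coloured by class; filled points passed an adjusted p under 0.05. All beta subunits and core chaperones lie to the right of 0, while PSMD1 at -2.33, PSME3 at -1.45 and PSMD12 at -1.26 lie farthest left among the filled points.

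Against the 2 monolayer libraries before NEE alone, 26 of 46 members were called, against 38% of all genes, with 22 higher (15.6%) and 4 lower (22.5%). The 8 members of smallest p were PSMD1, PSME3, PSMB6, PSMB3, PSMD12, PSMG2, PSMA7 and PSMD8, with log2 fold changes of -2.27 ± 0.24, -1.46 ± 0.19, 2.22 ± 0.34, 1.92 ± 0.30, -1.18 ± 0.22, 1.68 ± 0.31, 1.62 ± 0.31 and 1.80 ± 0.36 (SE). Of the members 23 lay above and 11 below both monolayer libraries in all NEE-sampled ones, against 61.2% of all genes. This comparison shares its control libraries with the preceding one. Without replicate 1 of the monolayers before NEE 13 members were called, 8 higher and 5 lower; without replicate 2, 36; with the NEE-sampled libraries summed into 1, 14. With the replicate number as a block PSMB9 and PSMD3 were no longer called (adjusted p = 0.0565 and 0.0736) and PSMB10 was called (0.0176).

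mRNA length moved with these differences. Protein-coding genes tested with a known mRNA length numbered 13437, members included. Among those that were not members, 630 with an mRNA of at most 1000 nucleotides had a median log2 fold change of 1.85 in NEE-sampled RNA. The 3183 such genes over 5000 nucleotides had -0.90. The 9 members in the shortest range, which hold PSMB1, PSMB3, PSMB4, PSMB6, PSMB7, PSMB9, PSMA3, PSMA7 and PSMG4, had a median of 1.38. Members of 1000 to 1500 nucleotides had 1.28 against 1.16 for the other genes, and those of 1500 to 2000 had 0.35 against 0.47. The 5 members of 2000 to 3000 nucleotides had 0.78 against -0.07, and the 11 of 3000 to 5000 had -0.53 against -0.60. PSMD1 with 3326 nucleotides and PSME3 with 3144 lay below the median of their range, and PSMF1 with 4290 above it. Spearman's rho between mRNA length and log2 fold change was -0.66 over the 46 members and -0.39 over the 13437 genes, and between GC content of the mRNA and log2 fold change 0.70 and 0.29; genes share libraries and are not independent. The part of mRNA length in the members' differences was not tested.

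**Figure D5:**
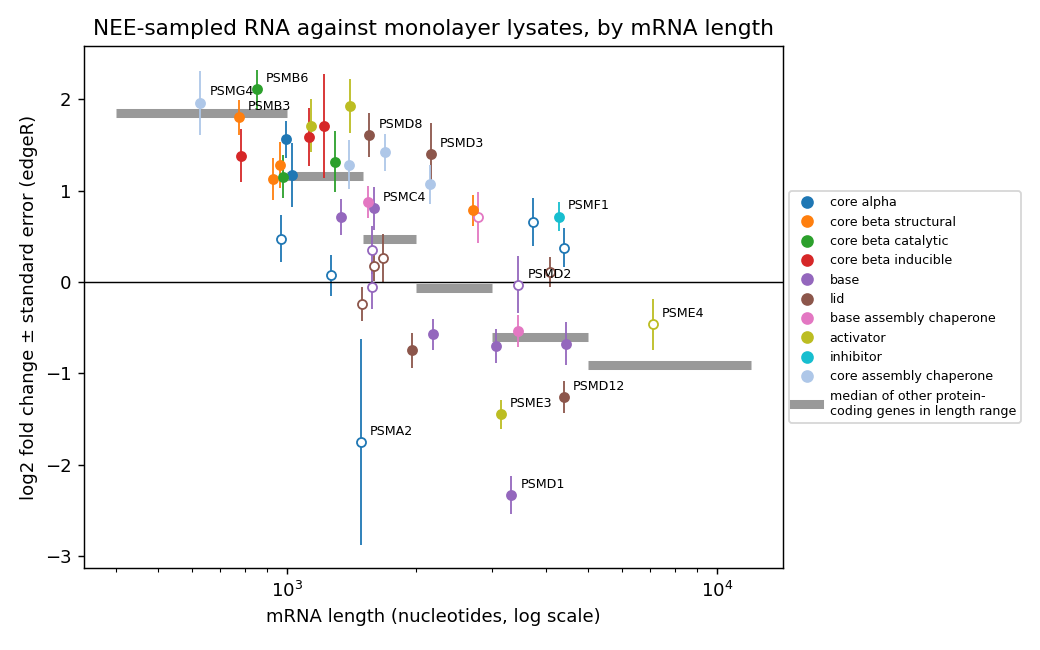
log2 fold change ± standard error of the 46 tested members in NEE-sampled RNA against monolayer lysates, by mRNA length on a log axis; grey bars give the median of the other protein-coding genes in each of 6 length ranges, the outer bars being drawn short of their open ends. The grey bars fall from 1.85 at up to 1000 nucleotides to -0.90 above 5000; the members' medians do not fall at every step, being 0.35 at 1500 to 2000 nucleotides and 0.78 at 2000 to 3000, with PSMD1 and PSME3 below and PSMF1 above their bars.

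Genes that work with the proteasome were followed as 4 lists of 12, all tested. None of the 48 was called at any time after NEE in either culture. The smallest p there belonged to MAFG, a small Maf partner of NRF1, at 2 h, with log2 fold changes of 1.01 ± 0.25 (SE) in monolayers and 0.90 ± 0.25 in spheroids (edgeR adjusted p = 1.0 and 0.96). Between spheroids and monolayers before NEE, the antigen processing gene HLA-C was higher (2.00 ± 0.26 on the log2 scale, SE), and no gene of the other 3 lists was called. Over the 4 times, antigen processing genes were called in both directions. HLA-C had 49.9 to 71.9 CPM in the monolayers and 149 to 228 in the spheroids, a difference of 1.79 on the log2 scale. HLA-B (2.14), B2M (0.92) and the peptide-loading chaperone TAPBP (0.80) were higher as well, and the peptide transporter TAP2 was lower (-1.18). PSME1 was the only proteasome gene called higher in spheroids. In this comparison 10% of all genes were higher and 9.84% lower. Among 12 proteasome partners 2 were higher, ZFAND5 (1.31) and the base chaperone PAAF1 (0.49), and 3 lower, the deubiquitinases UCHL5 (-0.80) and USP14 (-0.56), which bind the regulatory particle, and the importin IPO9 (-0.36). ZFAND5 had 51.1 to 137 CPM in the monolayers and 56.9 to 299 in the spheroids, with overlap. Its lowest spheroid libraries were replicate 1 before NEE and replicate 2 at 24 h, where PSMD2 and PSMD3 were low too. Among the ubiquitin and shuttle genes RAD23B (-0.89), UBA6 (-0.81) and RPS27A (-0.54) were lower, and of 12 genes of NRF1 control 1 was higher, the ubiquitin ligase SYVN1 (1.04).

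In NEE-sampled RNA against the 4 monolayer groups, 4 of the 12 partners were higher and 4 lower, where 22.5% of all genes were higher and 26% lower. The core chaperone POMP had 124, 101 and 136 CPM against 43.1 to 63.4 in the monolayers and was higher by 1.51, and the small lid subunit SEM1 by 1.06; ADRM1 (0.71) and PAAF1 (0.74) were higher too. USP14 (-1.31), ECPAS (-1.18), IPO9 (-0.96) and UCHL5 (-0.70) were lower. RPS27A (2.60), which encodes ubiquitin fused to a ribosomal protein, the polyubiquitin gene UBB (1.59) and UBQLN4 (1.06) were higher, while UBQLN1 (-2.11), UBQLN2 (-1.98), UBA6 (-1.66) and RAD23B (-0.68) were lower. In NRF1 control NFE2L1, the gene of NRF1, had 9.03, 6.08 and 7.08 CPM against 57.0 to 85.2 in the monolayers with a log2 fold change of -2.84. SEL1L (-3.15), VCP (-2.07) and MAFG (-0.76) were lower, and NPLOC4 (0.61) was higher. Of the antigen processing genes TAP2 (-3.26), NLRC5 (-2.10), TAP1 (-2.10), ERAP1 (-1.55) and TAPBP (-1.53) were lower, and B2M (1.35) and HLA-C (0.79) were higher.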

How the data were processed

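Smart-Seq2 libraries of 16 A549 lysates and 3 NEE-sampled RNAs were used. The authors deposited raw counts per gene. The submitters' processing notes name FastQC, Trimmomatic, HISAT2, featureCounts and the build GRCh38; for versions, annotation release, strand setting and shared reads the sources used here give nothing. Per the labels, lysate RNA came from a total RNA kit, while a clean-up kit made for little RNA was used after NEE sampling, so kit and sampling cannot be told apart. CPM divides a count by its library total. Exon lengths, overlaps and mRNA lengths came from GENCODE, which placed 58207 of 62700 identifiers.

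Counts were tested with edgeR 4.0.16 (R 4.3.3): quasi-likelihood, robust, TMM scaling, filterByExpr, adjusted p under 0.05. The fit of 16 lysates held 17822 genes with 8 residual degrees of freedom, and that of 3 NEE-sampled and 8 monolayer libraries 17067 genes with 6. Their biological coefficients of variation were 0.518 and 0.519. The tests were also run on simulated data: over the 4 times, 70.4% of 2-fold changes between spheroids and monolayers were recovered, and against monolayers before NEE 6.85% of 2-fold changes in NEE-sampled RNA. Here too the changed genes were drawn at random, not at the members' levels. Replicates differed beyond sampling noise (chi-square per gene of 38.3 to 229), and p-values measure only the spread between these samples. Alternatives were other scalings and filters, DESeq2 1.42.0, a replicate block, only the groups compared, NEE-sampled libraries summed, and each library left out.

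The labels' batch equals the replicate number and was taken to pair groups; over 28 pairs of groups the deviations of same-numbered libraries correlated at -0.277 to 0.498, median 0.214, over 10084 genes. The fit is without the block and treats libraries of the same batch at different times as independent. Members, lists and tests were chosen with earlier results of these data known. Named by rule were PSMB5 to PSMB10, PSME1, PSME2, every member called in a comparison (where over 12, the 8 of smallest p), else the 3 of smallest p, and the highest and lowest of each class per length; of the related lists those called, else those of smallest p. Some genes of the related lists are not reported here.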

Additional observations from a re-analysis of the deposited data

How the results depend on the processing

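The time comparisons have 2 libraries a group, and no alternative other than leaving out a library called a member in them. The spheroid and monolayer comparison before NEE gave 2 members with no filter on low counts instead of 0. With the NEE-sampled libraries summed into 1, calls were 14 instead of 26 against monolayers before NEE and 21 instead of 32 against the mean of the 4 groups. Leaving out 1 library at a time gave 0 to 2 members in monolayers at 24 h, 0 to 4 in spheroids against monolayers before NEE, 4 to 10 over the 4 times, 13 to 36 in NEE-sampled RNA against monolayers before NEE and 27 to 37 against the mean of the 4 groups. The members' median log2 fold change then ranged from -0.28 to 0.64 in monolayers right after NEE, -0.20 to 0.73 at 2 h and 0.00 to 0.88 at 24 h, with both ends reached by leaving out a monolayer library before NEE. It ranged from -0.59 to 0.48, -0.53 to 0.45 and -0.84 to 0.07 for the interactions right after NEE, at 2 h and at 24 h, from -0.38 to 0.50 for spheroids against monolayers before NEE, and from 0.55 to 1.53 for NEE-sampled RNA against monolayers before NEE. PSME4 in spheroids right after NEE was at -0.68, and turned to 0.13 without replicate 2 of the spheroids before NEE and to -1.22 without replicate 1. The causes were not tested. Fits of only the groups compared were not planned for the comparisons over several groups.

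With the replicate block, 8 members were called between spheroids and monolayers over the 4 times instead of 7, 24 instead of 26 in NEE-sampled RNA against monolayers before NEE and 30 instead of 32 against the mean of the 4 groups; apart from PSMB9, PSMB10 and PSMD3, the block changed no call of a gene followed through the alternatives. Over all genes, calls in the 3 monolayer and 3 spheroid time comparisons were 0, 1, 0, 0, 2 and 0, and with no filter on low counts 52, 99, 132, 1, 56 and 16. DESeq2 gave 15, 64 and 47 in the monolayers and 2 and 38 in the first 2 spheroid comparisons. For the interactions they were 25, 35 and 69 with no filter and 1, 3 and 13 with DESeq2, instead of 0. Between cultures before NEE 231 genes became 1193 with no filter, 424 with the stricter filter, 612 with the block, 1343 with DESeq2 and 0 with only the groups compared. Summing the NEE-sampled libraries gave 4011 genes instead of 6493 and 5030 instead of 8287. TMM-scaled CPM put the median summed level of the members in lysates at 9524 instead of 9596 CPM.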
